A study of Mus musculus with 10 samples.

Results

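Transcripts of 10 genes of mitochondrial fusion, fission and mitophagy were described in the cochlea of mice that accumulate mutations in mitochondrial DNA. The genes are Mfn1, Mfn2 and Opa1 (fusion), Oma1 (processing of the Opa1 protein), Dnm1l, Fis1 and Mff (fission), and Pink1, Bnip3 and Bnip3l (mitophagy). They were taken as every probe set of the platform whose gene symbol, current or older, is one of these names. This gave 25 of 45037 probe sets. Across the series 18161 genes had a probe set of their own, a count that leaves out Bnip3l. Each gene had between 1 and 4 probe sets, and 22 of the 25 belonged to that gene alone. The 3 probe sets of Bnip3l are assigned to both Bnip3l and its pseudogene Bnip3l-ps, so the 2 transcripts cannot be told apart and their values are given for the pair. RNA came from whole cochleae, the hearing organ of the inner ear, of male mice aged 9 months. The mice carried either PolgD257A/D257A (5 arrays, D257A below) or Polg+/+ (5 arrays, WT below). Polg codes for the polymerase that copies mitochondrial DNA, and with D257A on both alleles that enzyme lacks exonuclease activity in all tissues, so errors made in copying stay. Samples are numbered 1 to 5 within a genotype. The labels leave unsaid whether these were separate mice, and the submitters' design note states that replicates were not made. P-values therefore measure the spread between these samples, which may be technical.

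Mitochondria form a network that is joined and divided throughout a cell's life. The mitofusins Mfn1 and Mfn2 join outer membranes and Opa1, a dynamin-related GTPase of the inner membrane, joins inner membranes, while the protease Oma1 cleaves Opa1 under stress and stops inner membrane fusion. Division is carried out by the cytosolic GTPase Drp1, encoded by Dnm1l, which is drawn to the outer membrane by receptors such as Mff and, in some settings, Fis1. Damaged mitochondria are removed by mitophagy, either through the kinase Pink1, which accumulates on depolarised mitochondria and phosphorylates ubiquitin there, or through the outer membrane receptors Bnip3 and Bnip3l, which bind the autophagosome directly. Much of this control acts on the proteins, so transcript levels report only part of it.

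The authors' scaling had set the trimmed mean signal of every array between 1494 and 1496, and log2 signals of array pairs correlated with r from 0.854 to 0.951. Within D257A the array least like its own group was replicate 2, with a mean r of 0.89, followed by replicate 4 (0.906). Within WT it was replicate 3 (0.914), which lay above D257A replicate 4. Of 25 cochlear markers, 18 were bright enough to be tested, and Coch, the main matrix protein of the cochlea, averaged 68700 ± 8933 in D257A and 74290 ± 6934 in WT cochleae (SD, n = 5 each). Of the 18 tested, 1 was called, Kcnj10, a potassium channel of the stria vascularis, which was higher. At an unadjusted limma p under 0.05 with a fold above 1.1, 1 was higher (Kcnj10) and 2 were lower (Otog and Myo7a). Over all tested genes 2.32% were called and 16.6% passed the unadjusted rule. The dimmer ones were Slc26a5, Strc, Tecta, Cdh23, Pou4f3, Atoh1 and Chrna9, of which several mark hair cells, a small share of the organ. Skeletal muscle RNA differed between the genotypes: 9 of 24 tested muscle markers were called lower (limma, adjusted p under 0.05) and 0 higher. At an unadjusted p under 0.05 with a fold above 1.1, 23 of the 24 were lower, and the median log2 fold change was -2.71. The summed signal of all 26 was 21082 to 353500 in D257A against 234892 to 741491 in WT. By a muscle score, the mean centred log2 signal of these markers, the genotypes overlapped only between D257A replicate 5 (0.53) and WT replicate 3 (0.16). Summed signals of neutrophil markers were 117928 to 351144 in D257A against 116678 to 194206 in WT (2 of 16 called higher and 1 lower, 13 higher and 1 lower at an unadjusted p under 0.05 with a fold above 1.1, as in all such counts below). Of these 16, 15 had positive log2 fold changes, with a median of 0.82. Sums of neuron markers were 203247 to 274202 in D257A against 258862 to 280733 in WT (1 of 18 called lower, 4 lower at the unadjusted p). Those of erythroid markers were 35823 to 54404 in D257A against 46142 to 73812 in WT (0 of 12 called at an adjusted p under 0.05, 3 lower at the unadjusted p), and those of adipocyte markers 32561 to 116086 in D257A against 63671 to 111851 in WT (3 of 10 called lower, 4 lower and 1 higher at the unadjusted p). No marker was listed at 0. In such bulk RNA, fewer cells of a type and less RNA per cell cannot be told apart. The part of these differences in any result below was not tested. For some genes a fit with the muscle score as a covariate is given. As that score nearly separates the genotypes, such a fit cannot tell muscle from genotype. Over all tested probe sets it called 30, against 513 without the score.

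None of the fusion, fission and mitophagy genes passed the test of a difference between D257A and WT cochleae. Signals were compared as log2(signal + 16) with limma over the brighter 22518 of 45037 probe sets, with Benjamini-Hochberg adjustment at 0.05, and 20 of the 25 probe sets, covering all 10 genes, were bright enough to be tested. Of these 20, 0 were called, where 2.28% of all tested probe sets were called (1.03% higher and 1.24% lower in D257A). In the fit of all 45037 probe sets 0 of 25 were called, beside 1.31% of all (0.668% higher and 0.644% lower). In that fit 3 of 25 had an unadjusted p under 0.05, among them the dimmest Mff and the dimmest Mfn1 probe set, both with higher means in D257A. The median log2 fold change was 0.0917 over all 45037 probe sets and -0.0005 over the brighter 22518. Dim probe sets as a whole thus lay higher in D257A. The adjusted p of the 20 ranged from 0.293 to 0.976, and 1 of 20 had an unadjusted limma p under 0.05, against 16.9% of all tested probe sets under that threshold with a fold above 1.1. The ranges of the genotypes overlapped for all 25 probe sets, while they did not overlap for 5.16% of those tested. By each gene's brightest probe set 5 genes had a positive and 5 a negative log2 fold change, from -0.22 for Mfn2 to 0.26 for Mff. The median was 0.0383, beside -0.0224 over all 11863 tested genes. In size, regardless of direction, the median log2 difference was 0.15 for the 10 genes and 0.21 for all genes. The 2 were not matched for brightness: the brightest probe sets of the 10 genes lay at percentiles 77.7 to 98.7 of all probe sets. A p that misses the threshold does not show equal levels, so the 95% intervals matter: for 9 of the 10 brightest probe sets they lay within a 2-fold change in either direction, and for Fis1 they did not.

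**Figure D1:**
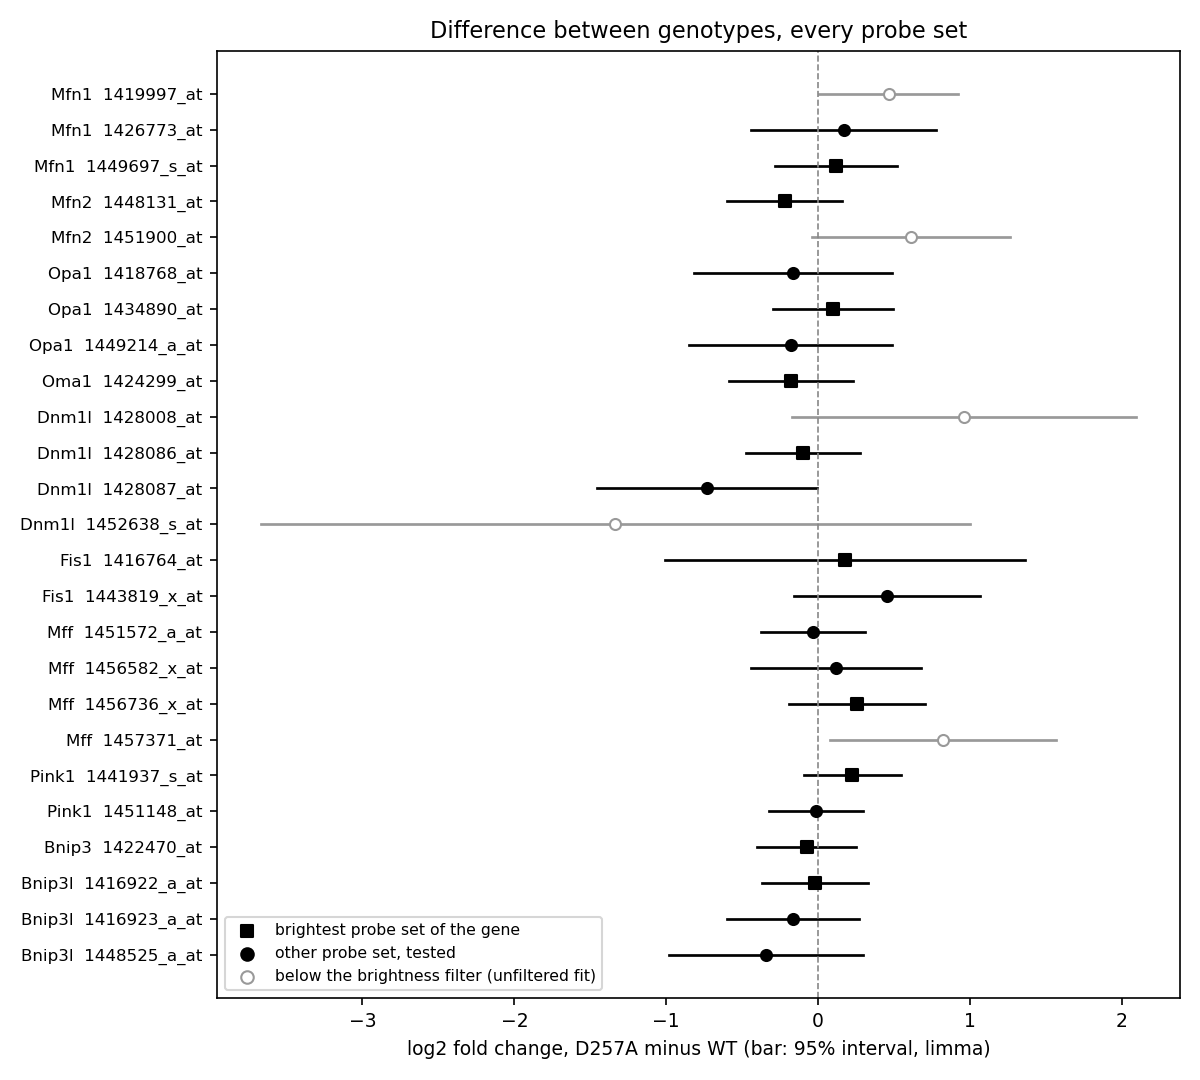
Log2 fold change (D257A minus WT, horizontal axis) of all 25 probe sets with 95% limma intervals. Squares are the brightest probe set of each gene, filled circles other tested probe sets, and open grey circles the 5 probe sets below the brightness filter, taken from the fit without that filter. The 20 filled symbols lie between -0.73 and 0.45, and the 3 tested intervals that reach beyond a 2-fold change belong to Dnm1l and Fis1.

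The mitofusins, which join outer membranes, showed no called difference. The brightest Mfn1 probe set measured 4889.9, 5642, 6214, 6867 and 8311 in D257A replicates 1 to 5, against 5341, 5135, 8121, 5244 and 5592 in WT replicates 1 to 5. The D257A values covered nearly the same range as those of WT, where replicate 3 stood above the other 4 arrays. The means were 6385 ± 1300 in D257A and 5887 ± 1261 in WT cochleae (SD, n = 5 each; log2 fold change 0.12, SE 0.19, limma adjusted p = 0.802), and the 95% interval of the fold change ran from 0.82 to 1.43. The second Mfn1 probe set averaged 2623 ± 744.4 in D257A and 2371 ± 764.9 in WT cochleae (SD, n = 5 each; limma adjusted p = 0.811), with its lowest signals in WT replicate 3 (1202) and D257A replicate 2 (1581). The third, below the brightness filter, measured 702, 535, 582, 774 and 744 in D257A replicates 1 to 5, against 442, 424, 576, 483 and 458 in WT replicates 1 to 5. Of these dim D257A values 4 of 5 exceeded every WT value, with an adjusted p of 0.306 in the unfiltered limma fit and an unadjusted exact permutation p of 0.0159 (two-sided). The log2 fold change of this dim probe set was 0.47 (SE 0.21). The median over all probe sets of that fit, bright ones included, was 0.0917, and its part in this value was not tested.

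Mfn2 also tethers mitochondria to the endoplasmic reticulum, and is mutated in a human axonal neuropathy. Its brighter probe set measured 3287, 2747, 3321, 4242 and 3519.6 in D257A replicates 1 to 5, against 5415, 3603, 3300.1, 3899 and 3847 in WT replicates 1 to 5. WT replicate 1 was the highest and D257A replicate 2 the lowest of the 10 arrays. The means were 3423 ± 539.7 in D257A and 4013 ± 818.8 in WT cochleae (SD, n = 5 each; log2 fold change -0.22, SE 0.17, limma adjusted p = 0.563), with a fold interval of 0.66 to 1.12. Mfn2 is abundant in skeletal muscle, and WT replicate 1 also had the highest muscle marker score (1.94 on a centred log2 scale). With that score as a covariate the Mfn2 difference was -0.23 (limma adjusted p = 0.875). As given above, that fit cannot tell muscle from genotype, and the part of muscle in the Mfn2 values was not tested. A dim second probe set pointed the other way, with 528.1 ± 99.6 in D257A and 356.3 ± 130.3 in WT (SD, n = 5 each; unfiltered limma adjusted p = 0.347). The log2 fold change of this dim probe set was 0.61 (SE 0.30). Over all probe sets of the unfiltered fit, bright ones included, the median was 0.0917, and its part in this value was not tested.

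**Figure D2:**
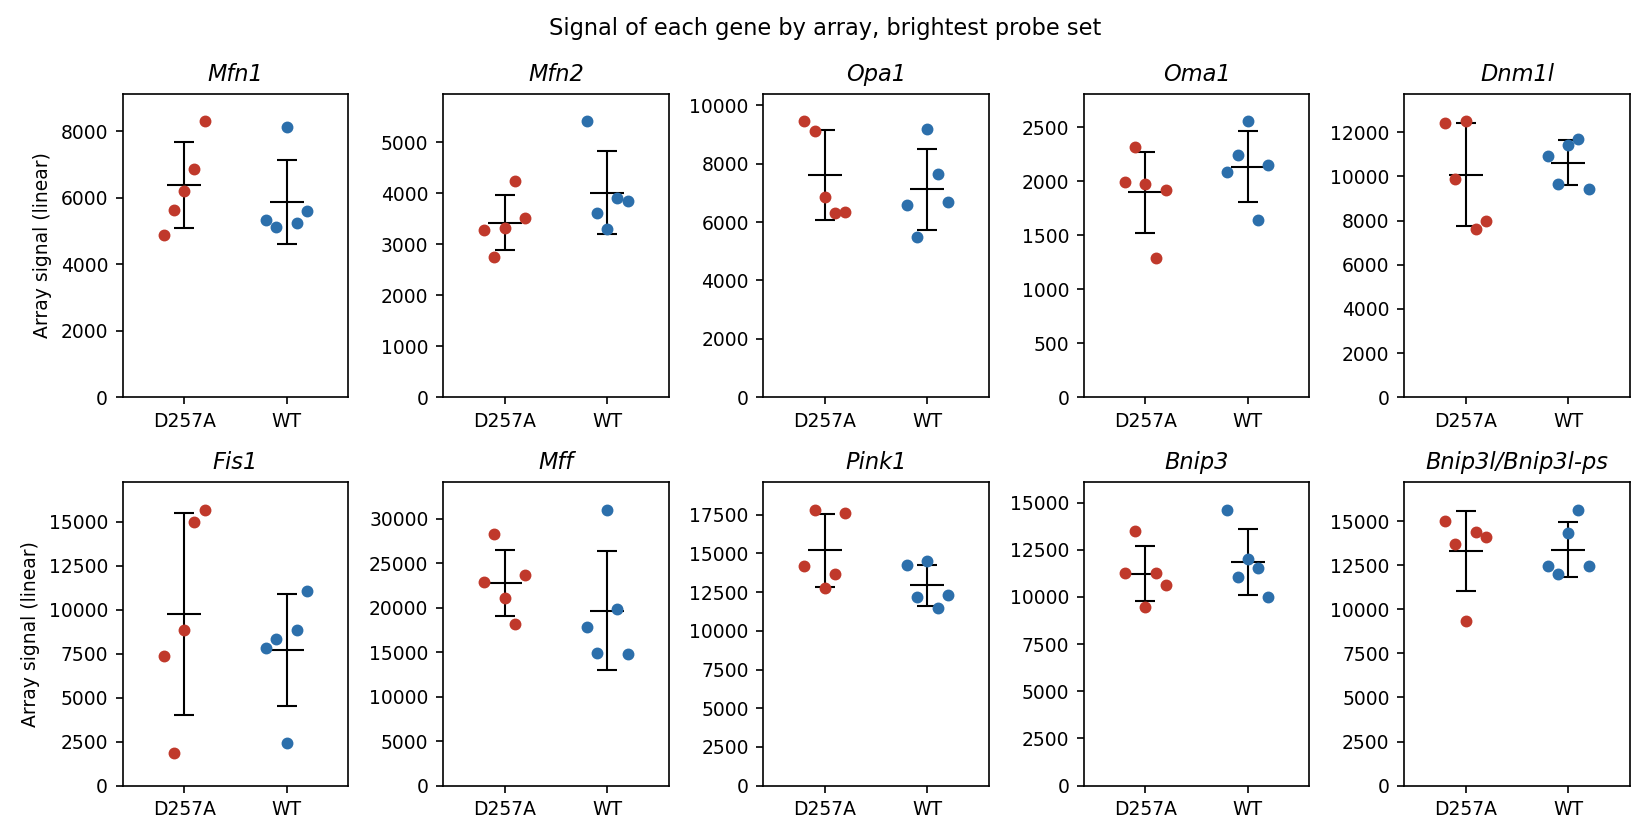
Linear array signal (vertical axis) of the brightest probe set of each gene, with D257A arrays in red on the left and WT arrays in blue on the right of each panel, in replicate order. Horizontal marks and bars are the mean and SD of 5 arrays, and levels cannot be compared between panels. The red and blue points overlap in every panel, and the Fis1 points spread most, from 1872 to 15703 in D257A and from 2436 to 11055 in WT.

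Inner membrane fusion was represented by Opa1, the gene mutated in human dominant optic atrophy, and by its protease Oma1. The brightest Opa1 probe set measured 9462, 9119, 6877, 6325 and 6345 in D257A replicates 1 to 5, against 6579.9, 5493, 9195, 7640.2 and 6685 in WT replicates 1 to 5. The highest signals came from D257A replicates 1 and 2 and WT replicate 3, and the groups overlapped throughout. The means were 7626 ± 1541 in D257A and 7119 ± 1388 in WT cochleae (SD, n = 5 each; log2 fold change 0.0975, SE 0.18, limma adjusted p = 0.838). Both other Opa1 probe sets had negative log2 fold changes, -0.17 and -0.18 (limma adjusted p = 0.832 and 0.817). These were lowest in D257A replicate 5, at 607 and 338, and highest in D257A replicate 3, at 1916 and 879. For Opa1 the spread within D257A was thus wider than any distance between the genotype means. Oma1, with a single probe set, measured 1993, 2319, 1974, 1288 and 1918 in D257A replicates 1 to 5, against 2082, 2247, 2557, 1642 and 2147 in WT replicates 1 to 5. D257A replicate 4 was lowest and WT replicate 3 highest. The means were 1898 ± 375.6 in D257A and 2135 ± 330.3 in WT cochleae (SD, n = 5 each; log2 fold change -0.18, SE 0.19, limma adjusted p = 0.68).

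Dnm1l, which encodes the GTPase that constricts and divides mitochondria and peroxisomes, held the smallest unadjusted limma p among the 20 tested probe sets, in 1 of its 4 probe sets. The brightest probe set measured 12405, 9899.8, 12506, 7627 and 7989 in D257A replicates 1 to 5, against 10905, 9676, 11439, 11704 and 9428 in WT replicates 1 to 5. D257A replicates 4 and 5 lay below every WT array and D257A replicates 1 and 3 above every WT array. The means were 10090 ± 2330 in D257A and 10630 ± 1029 in WT cochleae (SD, n = 5 each; log2 fold change -0.10, SE 0.17, limma adjusted p = 0.818). The second tested probe set measured 7884, 3030.3, 8042, 4087 and 2454 in D257A replicates 1 to 5, against 8572, 7249, 4711, 9786 and 8483 in WT replicates 1 to 5. D257A replicates 2, 4 and 5 lay below every WT array, while D257A replicates 1 and 3 lay within the WT range. Its means were 5099 ± 2679 in D257A and 7760 ± 1926 in WT cochleae (SD, n = 5 each), with a log2 fold change of -0.73 (SE 0.33), a limma adjusted p of 0.293 and an exact permutation p of 0.0873 (two-sided, smallest possible 0.00794). Without D257A replicate 5 its log2 fold change was -0.51, and without WT replicate 3 it was -0.90.

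The Dnm1l probe sets thus did not share 1 picture. The third one, below the brightness filter, measured 702, 18.1, 711, 288 and 6.2 in D257A replicates 1 to 5, against 953, 600.2, 29.5, 561 and 771 in WT replicates 1 to 5. Signals near 0 appeared in D257A replicates 2 and 5 and in WT replicate 3, and values from 288 to 953 in the other arrays. The log2 fold change of -1.34 had an SE of 1.08 (unfiltered limma adjusted p = 0.584). The last stayed at or below 125 on all arrays, a range in which its level was not read. Which exons or ends of the transcript these probe sets cover was not analysed here. Isoforms, which Dnm1l has through alternative splicing, were therefore not separated.

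Fis1 and Mff are tail-anchored proteins of the outer membrane at which Drp1 can assemble. The brighter Fis1 probe set measured 7357, 1872, 8859, 15012 and 15703 in D257A replicates 1 to 5, against 7829, 8327, 2436, 8868 and 11055 in WT replicates 1 to 5. D257A replicate 2 and WT replicate 3 lay far below the rest, and D257A replicates 4 and 5 were the highest of all. Its 10 values spanned 8.39-fold, and its residual SD of 1.07 (log2) exceeded that of 97.9% of tested probe sets. The means were 9760 ± 5738 in D257A and 7703 ± 3191 in WT cochleae (SD, n = 5 each; log2 fold change 0.18, SE 0.55, limma adjusted p = 0.906), with a fold interval of 0.50 to 2.57. The second Fis1 probe set repeated this order of arrays at its ends, with 2207, 1415, 2966, 4197 and 4402 in D257A replicates 1 to 5 and 2369.5, 1853, 1766, 1869 and 2437 in WT replicates 1 to 5. It averaged 3037 ± 1278 in D257A and 2059 ± 317.7 in WT cochleae (SD, n = 5 each; log2 fold change 0.45, SE 0.28, limma adjusted p = 0.447). Leaving out both low arrays, D257A replicate 2 and WT replicate 3, gave Fis1 log2 fold changes of 0.32 and 0.65 (limma adjusted p = 0.511 and 0.163). Without D257A replicate 2 alone, the brighter one was 0.69, and without D257A replicate 5 it was -0.0747.

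Mff, the main receptor of Drp1 in mammalian cells, had 4 probe sets. The brightest measured 22939, 28273, 21115, 18167 and 23724 in D257A replicates 1 to 5, against 17822, 14899.5, 31046, 19906 and 14808 in WT replicates 1 to 5. WT replicate 3 was the highest array and WT replicates 2 and 5 the lowest, so the WT range enclosed that of D257A. The means were 22840 ± 3712 in D257A and 19700 ± 6695 in WT cochleae (SD, n = 5 each; log2 fold change 0.26, SE 0.21, limma adjusted p = 0.575). The second probe set averaged 4652 ± 977.0 in D257A and 4691 ± 204.7 in WT cochleae (SD, n = 5 each), and its WT values lay close together, from 4394 to 4870.4, inside the D257A range of 3818 to 6325. The third averaged 857.0 ± 179.1 in D257A and 819.8 ± 315.7 in WT cochleae (SD, n = 5 each). Neither was called (limma adjusted p = 0.941 and 0.862). The last and dimmest measured 259, 599, 219.5, 261 and 362 in D257A replicates 1 to 5, against 227, 110.1, 155, 244 and 161 in WT replicates 1 to 5. Its log2 fold change of 0.82 did not pass in the unfiltered limma fit (adjusted p = 0.269), with an unadjusted exact permutation p of 0.0238. In that fit the median over all probe sets, bright ones included, was 0.0917, and its part in this value was not tested.

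Pink1 and Bnip3 were among the most evenly measured genes of the set. Pink1, the kinase whose loss causes an inherited parkinsonism in humans, had a pair of probe sets brighter than 97.7% of all. The brighter measured 14164, 17830.0, 12751, 13679.6 and 17634 in D257A replicates 1 to 5, against 14221, 12206, 14483, 11496 and 12313 in WT replicates 1 to 5. D257A replicates 2 and 5 lay above every other array, and the remaining D257A values lay within the WT range. The means were 15210 ± 2357 in D257A and 12940 ± 1327 in WT cochleae (SD, n = 5 each; log2 fold change 0.23, SE 0.15, limma adjusted p = 0.471), with a fold interval of 0.94 to 1.46. The second measured 12414, 12331, 13246, 15048 and 15563 in D257A replicates 1 to 5, against 13974, 15117, 11568, 12867 and 15849 in WT replicates 1 to 5. Here the groups covered nearly the same range, with means of 13720 ± 1502 in D257A and 13880 ± 1717 in WT cochleae (SD, n = 5 each; log2 fold change -0.0139, SE 0.14, limma adjusted p = 0.976). The residual SDs of both, 0.19 and 0.17 on the log2 scale, were below those of most tested probe sets (percentiles 6.5 and 3.9).

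Bnip3 is a mitophagy receptor whose transcription is raised by hypoxia-inducible factors. Its only probe set measured 11279, 13518, 9489, 11288 and 10624 in D257A replicates 1 to 5, against 14628, 11080.0, 12036, 11532 and 9975 in WT replicates 1 to 5. WT replicate 1 was highest and D257A replicate 3 lowest. The means were 11240 ± 1469 in D257A and 11850 ± 1729 in WT cochleae (SD, n = 5 each; log2 fold change -0.0742, SE 0.15, limma adjusted p = 0.851), with a fold interval of 0.76 to 1.19. Because the hypoxia-induced genes are set beside Bnip3 below, its promoter is shown here from the RefSeq table of build GRCm38.p6, over the 250 bases before the gene's start at chr7:138909507-138909756 on the minus strand. Capitals mark the letters ACGTG and GCGTG, the core of the hypoxia response element, on either strand.
Bnip3: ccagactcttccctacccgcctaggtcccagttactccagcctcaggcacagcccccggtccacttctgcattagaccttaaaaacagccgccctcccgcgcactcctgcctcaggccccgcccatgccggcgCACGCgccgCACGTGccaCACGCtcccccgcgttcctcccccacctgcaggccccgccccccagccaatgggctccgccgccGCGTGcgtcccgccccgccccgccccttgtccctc
The window held 5 matches in 4 blocks, since the palindrome in the second block counts once on each strand. Of 32851 windows of the same length in the table, 38.6% held at least 1 match and 1.01% at least as many. Among the members, 9 of 10 had an entry and 4 held a match. The letters describe the window and are no measure of binding.

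Bnip3l, also called Nix, clears mitochondria from maturing red cells and is measured here together with Bnip3l-ps. The brightest of the 3 shared probe sets measured 15019, 13701, 9311, 14388 and 14082 in D257A replicates 1 to 5, against 12442, 11987, 14355, 15654 and 12457 in WT replicates 1 to 5. D257A replicate 3 was the lowest array and the other D257A arrays lay within the WT range. The means were 13300 ± 2282 in D257A and 13380 ± 1565 in WT cochleae (SD, n = 5 each; log2 fold change -0.021, SE 0.16, limma adjusted p = 0.966). The second averaged 7666 ± 2013 in D257A and 8474 ± 1351 in WT cochleae (SD, n = 5 each) and the third averaged 2843 ± 1362 in D257A and 3363 ± 715.6 in WT cochleae (SD, n = 5 each). Their log2 fold changes were -0.17 and -0.34 (limma adjusted p = 0.725 and 0.599). In the third, D257A replicates 2, 4 and 5 (1847, 2096 and 1637) lay below every WT array, and D257A replicates 1 and 3 (4127 and 4507) above every WT array. All 3 were negative, and the summed erythroid marker signal was, as given above, 35823 to 54404 in D257A against 46142 to 73812 in WT, its part in these values not being tested.

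Much of the variation lay between arrays of 1 genotype. One group of probe sets, chosen after its values were seen, followed a shared order: the second and the third of Dnm1l, 2 of Opa1 (the dimmer ones) and the third of Bnip3l were all lowest in D257A replicate 5, and all had their highest D257A signal in replicate 3. Other probe sets of the same 3 genes shared this order in part or not at all. The brightest Dnm1l probe set was also highest in D257A replicate 3, but lowest in D257A replicate 4. The second of Bnip3l was highest in D257A replicate 1 and lowest in D257A replicate 4. The brightest of Bnip3l was lowest in D257A replicate 3, and the brightest of Opa1 was high in D257A replicate 2. Over the 20 tested probe sets, D257A replicate 5 held the lowest signal in 5, D257A replicate 2 in 3 and D257A replicate 4 in 3, against 11.8%, 17.4% and 13.8% of all tested probe sets. The muscle marker scores of these arrays were 0.53, -0.57 and -2.80, so the highest and the lowest D257A muscle score stood among them. Of the 7 genes with more than 1 tested probe set, 3 (Opa1, Mff and Pink1) had log2 fold changes of both signs.

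**Figure D3:**
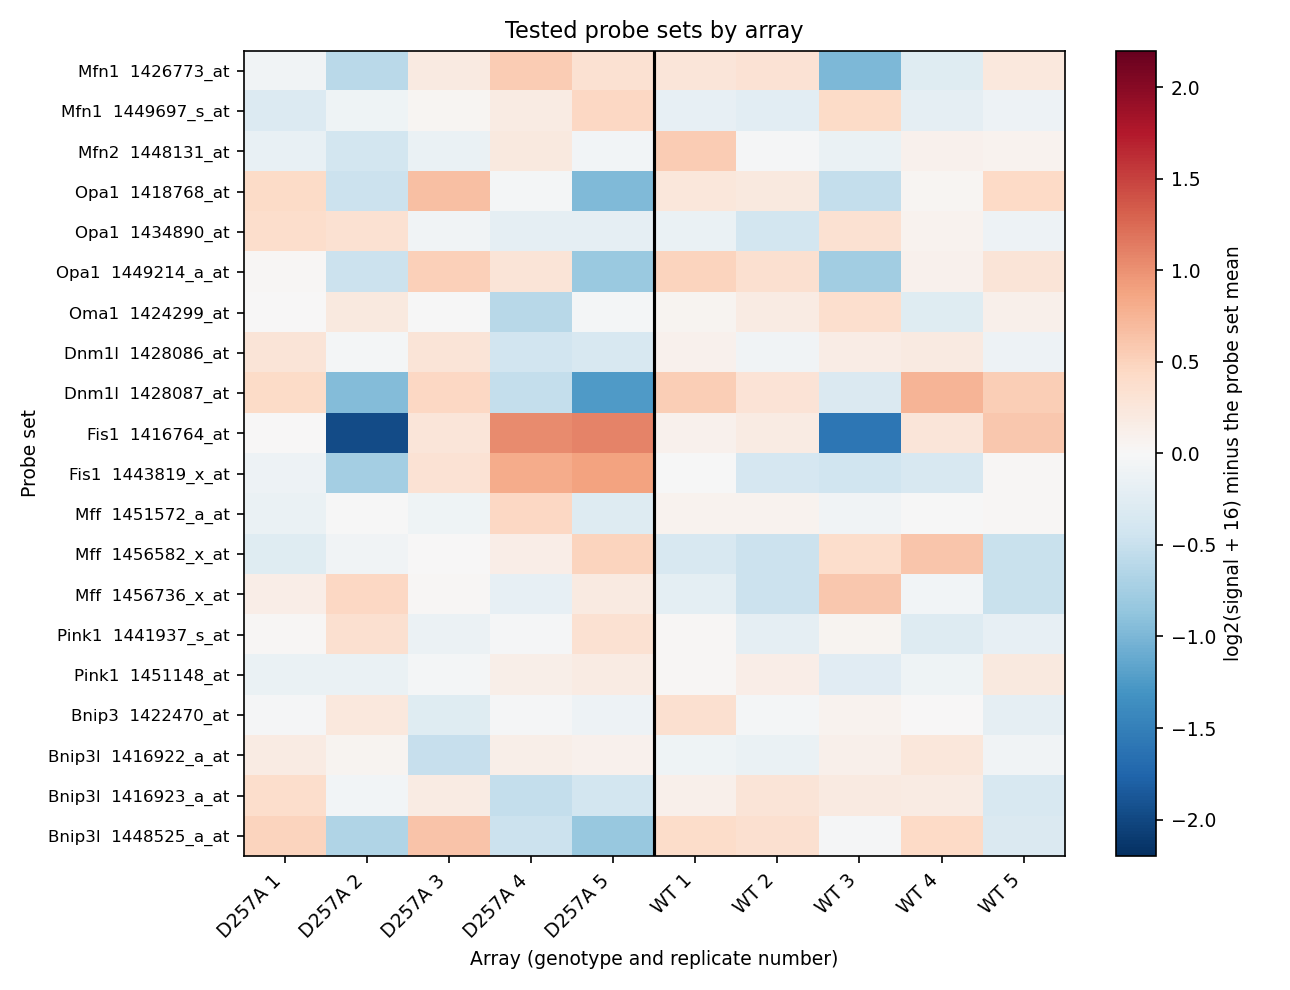
Centred log2 signal (colour, each row minus its mean over the 10 arrays) of the 20 tested probe sets, with D257A arrays left and WT arrays right of the black line. Blue cells in Dnm1l, Opa1 and Bnip3l rows recur in D257A replicates 2 and 5, and the deepest blue of both groups is that of Fis1 in D257A replicate 2 and WT replicate 3.

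The partners of these genes were read from 6 lists of textbook pathway genes, in which 130 of 139 genes were tested by their brightest probe set. Of the 130, 2 were called (1.54%), beside 2.32% of all 11863 tested genes. At an unadjusted limma p under 0.05 with a fold above 1.1, 22 of 130 passed (16.9%), beside 16.6% of all genes. Both shares were close to the background. The median log2 fold change of the 130 was 0.0341.

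Among fission genes Mief2 fell in D257A cochleae, and it was the only called gene on that list. Mief2 encodes MiD49, an outer membrane receptor that recruits Drp1 independently of Mff and Fis1. Its probe set measured 755, 961, 958, 1103 and 1429 in D257A replicates 1 to 5, against 1935, 1716, 1553, 1844 and 1735 in WT replicates 1 to 5. Every D257A array lay below every WT array. The means were 1041 ± 249.6 in D257A and 1757 ± 143.9 in WT cochleae (SD, n = 5 each), a fall to 0.59 times the WT level (log2 fold change -0.77, SE 0.18, limma adjusted p = 0.0478), where 1.66% of all genes were called lower. When each array was dropped in turn, Mief2 passed only without D257A replicate 5 (limma adjusted p = 0.0305), and the adjusted p reached 0.122 without WT replicate 2. It was 0.055 with quantile normalization and 0.0622 with no filter on dim probe sets. With the muscle marker score as a covariate the log2 fold change was -0.40 (limma adjusted p = 0.751). That score nearly separates the genotypes, so the fit cannot tell muscle from genotype. On the fission list 13 of 19 tested genes had positive log2 fold changes (median 0.16), while 1 was higher and 4 were lower at the unadjusted p. Ppp3cb and Ppp3ca, catalytic subunits of calcineurin, the phosphatase that activates Drp1, did not pass. Ppp3cb averaged 7129 ± 1596 in D257A and 10040 ± 720.5 in WT cochleae (SD, n = 5 each), and Ppp3ca averaged 9570 ± 2679 in D257A and 12800 ± 963.0 in WT cochleae (SD, n = 5 each; limma adjusted p = 0.134 and 0.226). Of the 3 tested Ppp3cb probe sets, 1 had the opposite sign.

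On the list of fusion, Opa1 processing and cristae genes 11 of 18 tested genes had positive log2 fold changes (median 0.046), and 0 were called in either direction at an adjusted limma p of 0.05 (1 at an unadjusted p under 0.05). Samm50, the core of the sorting and assembly machinery of the outer membrane, averaged 12270 ± 3225 in D257A and 8744 ± 978.6 in WT cochleae (SD, n = 5 each; limma adjusted p = 0.248). Miga2, a mitoguardin that promotes fusion, averaged 7442 ± 1462 in D257A and 6145 ± 700.1 in WT cochleae (SD, n = 5 each), and the cristae protein Chchd6 averaged 3808 ± 991.2 in D257A and 3013 ± 1059 in WT cochleae (SD, n = 5 each). Neither passed (limma adjusted p = 0.469 and 0.501), and 1 of 3 Miga2 and 1 of 2 Chchd6 probe sets had the opposite sign.

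Among mitophagy receptors and genes of the ubiquitin pathway 16 of 24 tested genes had positive log2 fold changes (median 0.0485) and 0 were called (6 at an unadjusted limma p under 0.05, 3 higher and 3 lower). Nipsnap2, which marks damaged mitochondria for autophagy receptors, measured 2981, 4311, 3653, 3414 and 5153 in D257A replicates 1 to 5, against 2196, 2179.9, 3528, 1314 and 1731 in WT replicates 1 to 5. WT replicate 3 lay within the D257A range and the other 4 WT arrays lay below it. The means were 3902 ± 848.7 in D257A and 2190 ± 831.9 in WT cochleae (SD, n = 5 each; log2 fold change 0.88, SE 0.25, limma adjusted p = 0.0883). Nipsnap2 passed in 3 of 21 alternatives, among them without WT replicate 3 (limma adjusted p = 0.0241) and with array weights (0.0275). Its highest limma adjusted p among the 21 was 0.528, with the muscle score as a covariate. Vps13d, a lipid transfer protein needed for mitochondrial clearance, averaged 2661 ± 481.7 in D257A and 4072 ± 931.1 in WT cochleae (SD, n = 5 each), and Tbk1, the kinase that phosphorylates autophagy receptors, averaged 6649 ± 891.6 in D257A and 4723 ± 1288 in WT cochleae (SD, n = 5 each; limma adjusted p = 0.151 and 0.184). Of the 2 tested Tbk1 probe sets, 1 had the opposite sign.

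No gene of autophagosome formation was called. On that list 11 of 32 tested genes had positive log2 fold changes (median -0.16, beside -0.0224 over all tested genes). At the unadjusted limma p 4 of 32 passed, all lower, beside 16.6% of all genes in either direction. The direction of the list as a whole was not tested. The 3 with the smallest p were Atg9a, the lipid scramblase of the vesicles that seed autophagosomes, Rb1cc1, a subunit of the Ulk1 kinase complex, and the kinase Ulk2. Atg9a averaged 2046 ± 551.4 in D257A and 3067 ± 426.7 in WT cochleae (SD, n = 5 each). Rb1cc1 averaged 3930 ± 1093 in D257A and 5660 ± 734.2 in WT cochleae (SD, n = 5 each) and Ulk2 2978 ± 566.7 in D257A and 4110 ± 574.1 in WT cochleae (SD, n = 5 each). The limma adjusted p was 0.152, 0.174 and 0.188. On the list of mitochondrial transport and tethering 6 of 17 tested genes had positive log2 fold changes (median -0.12) and 0 were called (2 at an unadjusted limma p under 0.05, both lower). Armcx1, which promotes transport of mitochondria in axons, averaged 4583 ± 909.3 in D257A and 6041 ± 367.0 in WT cochleae (SD, n = 5 each). The kinesin adaptor Fez1 averaged 12320 ± 3888 in D257A and 16500 ± 740.6 in WT cochleae (SD, n = 5 each), and the outer membrane protein Mtx1 7726 ± 1704 in D257A and 5943 ± 577.5 in WT cochleae (SD, n = 5 each; limma adjusted p = 0.206, 0.262 and 0.333). The Fez1 values of D257A replicates 2 and 5 were 7980.2 and 8376, against at least 15749 in WT. The summed signal of neuron markers, given above, was also lower in part of the D257A arrays, and its part in these values was not tested.

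Hypoxia-induced genes were read because Bnip3 belongs to them. On that list 13 of 22 tested genes had positive log2 fold changes (median 0.0739), and 1 was called higher, where 0.658% of all genes were called higher. At the unadjusted p 2 were higher and 2 lower. This was Ddit4, an inhibitor of mTORC1 that responds to glucocorticoids and other stress as well as to hypoxia. It averaged 12560 ± 4203 in D257A and 4735 ± 1110 in WT cochleae (SD, n = 5 each) and rose with a log2 fold change of 1.36 (limma adjusted p = 0.0133). Ddit4 passed whichever of the 10 arrays was dropped. With the muscle marker score as a covariate its log2 fold change was 1.08 and it was not called (limma adjusted p = 0.482). As given above, that fit cannot tell muscle from genotype. Slc2a1, a glucose transporter of barrier endothelium, measured 13908, 14724, 11499, 15365 and 15179 in D257A replicates 1 to 5, against 9062, 8292, 10794, 8919 and 10811 in WT replicates 1 to 5. The groups did not overlap in this probe set, and the limma adjusted p was 0.0634, but 1 of 3 Slc2a1 probe sets had the opposite sign. The brightest Slc2a1 probe set passed in 1 of 21 alternatives, with array weights (limma adjusted p = 0.0331). P4ha2, a collagen prolyl hydroxylase, averaged 1115 ± 66.2 in D257A and 1624 ± 310.6 in WT cochleae (SD, n = 5 each; limma adjusted p = 0.136), also without overlap of the groups. Bnip3 itself, as given above, averaged 11240 in D257A and 11850 in WT cochleae.

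**Figure D4:**
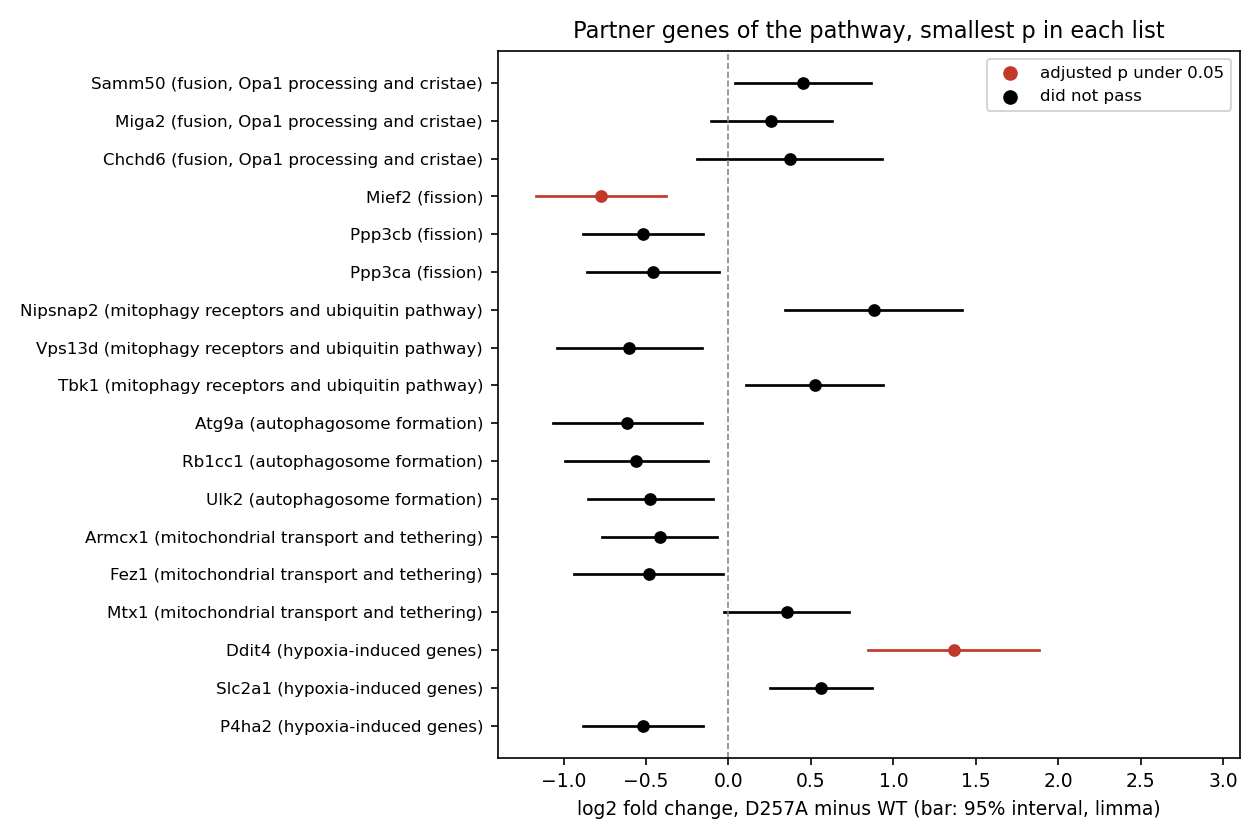
Log2 fold change (D257A minus WT, horizontal axis) of 18 partner genes with 95% limma intervals, the 3 with the smallest p of each of 6 lists. Red marks an adjusted p under 0.05, which Mief2 (-0.77) and Ddit4 (1.36) reached, and black marks genes that did not pass.

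Genes patterned like Dnm1l, the member with the smallest unadjusted p among the tested probe sets, were sought by the Pearson correlation of log2 signals with its brightest probe set over the 10 arrays, among 11862 other genes. That probe set is not the one with the small p, whose array pattern differed as given above. The 3 highest were Dmd (r = 0.956, Spearman's rho 0.939), Ltn1 (r = 0.954, rho 0.891) and Xiap (r = 0.953, rho 0.891). These are maxima over all genes on arrays that share scaling and quality, so they are given as a description without a test. Dmd averaged 2320 ± 1148 in D257A and 2562 ± 386.4 in WT cochleae (SD, n = 5 each), and none of the 3 was called between the genotypes (limma adjusted p from 0.693 to 0.792).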

How the data were processed

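The 10 samples were measured on Affymetrix mouse arrays with 45101 probe sets. The deposited values are an intensity per probe set on a linear scale, and the submitters' processing notes name GCOS 1.3. How background was corrected and probes were combined is not given in the sources used here. Detection calls were not used here, nor were scan dates. The authors' scaling was kept. The 64 control probe sets, filled for D257A replicate 5 only, were left out. Of 45037 others, 34945 had 1 gene in the platform table, 932 several and 9160 none, with symbols updated by gene identifier. The brightest probe set stood for a gene.

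Signals were analysed as log2(signal + 16), which makes fold changes of dim genes too small. Probe sets were ranked by mean signal and the upper fraction of 0.5 was tested (22518, mean signal of about 577 and more), using limma 3.58.1 under R 4.3.3, with genotype as the only term, an intensity trend and Benjamini-Hochberg adjustment at 0.05. Members below that level were read from a fit of all 45037. Exact permutation tests were two-sided over 252 splits. The script was tested on simulated data. The members, the lists and the alternatives were chosen with earlier results of these data known.

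All members are named, and of each list the 3 genes with the smallest p, which include every called one, and of the muscle markers the called ones are counted. The alternatives were other pseudocounts, scalings, filters and weights, a replicate block, a muscle score covariate, arrays left out and another threshold.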

Additional observations from a re-analysis of the deposited data

Results flagged for a closer look

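Some arrays stood far from the other 4 of their genotype, with a gap to the nearest larger than Dixon's 95% critical value for 5 samples. Chance gives about 1 in 20 such groups, and 9 of 104 groups met it over the 25 probe sets and the named partner and muscle genes. WT replicate 3 measured 8121 for the brightest Mfn1 probe set, and the other WT arrays 5135 to 5592. WT replicate 3 measured 29.5 for the dim Dnm1l probe set described as the third, and the other WT arrays 561 to 953. WT replicate 3 measured 2436 for the brighter Fis1 probe set, and the other WT arrays 7829 to 11055. WT replicate 3 measured 8788 for Ppp3cb, and the other WT arrays 10165 to 10612. WT replicate 3 measured 4413 for Rb1cc1, and the other WT arrays 5646 to 6221. WT replicate 3 measured 3956 for Tnnt3, and the other WT arrays 22042 to 42971. WT replicate 5 measured 6164 for the second Bnip3l/Bnip3l-ps probe set, and the other WT arrays 8535 to 9653. D257A replicate 3 measured 9311 for the brightest Bnip3l/Bnip3l-ps probe set, and the other D257A arrays 13701 to 15019. D257A replicate 5 measured 1823 for Vps13d, and the other D257A arrays 2704 to 2989. WT replicate 3 was the array in 6 of the 9, and its mean r with its own group was 0.914. No explanation was tested.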

How the results depend on the processing

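In all 417 pairings of a probe set of the 10 genes with an alternative none was called, and the lowest adjusted p was 0.147, while 20 changed sign. Over all probe sets 513 were called, and 322 among the brightest 30%, 1217 with array weights, 188 with a replicate block, 30 with the muscle score as a covariate, 3809 at an unadjusted p with a fold above 1.1, and 168 to 574 when 1 array was left out (299 and 323 without D257A replicates 1 and 5, 168, 277 and 177 without WT replicates 2, 4 and 5). The block left the calls of the 10 genes at 0 and lost that of Mief2 (adjusted p = 0.122), and the numbers do not pair the arrays (deviations of same-numbered arrays correlated with r from -0.337 to 0.183, and only 2 of 5 D257A arrays matched their own number best). The unadjusted threshold passed 1 of the 20 tested probe sets of the 10 genes, in Dnm1l. The 2 called partner genes became 1 with quantile normalization, with no filter, in the brightest 30% and with the block, 0 with the muscle score, 6 with array weights, 22 at the unadjusted threshold, 3 with probe sets of a gene averaged, and 1 to 2 when 1 array was left out. The median over the 10 genes (0.0383) was -0.0625 when arrays were centred on the median, which moved the median of all tested probe sets to -0.10, and -0.0785 with probe sets of a gene averaged. Without Bnip3l, an alternative chosen after seeing the data, it was 0.0975, and -0.0361 to 0.11 when 1 array was left out. Signs turned for the brightest Opa1 probe set (-0.0033 when centred, -0.0941 with the muscle score), Oma1 (0.035), the second Pink1 probe set (0.15) and Tnnt3 (0.0060) with that score, the second Mff probe set with quantile normalization (0.0041) and the brightest Dnm1l probe set with array weights (0.0221). When 1 array was left out, signs turned for Bnip3 (-0.14 to 0.0046), the brightest Bnip3l/Bnip3l-ps (-0.0698 to 0.1025), Fis1 (-0.20 to 0.69), second Mff (-0.15 to 0.0319), second Mfn1 (-0.0547 to 0.34), second Opa1 (-0.35 to 0.0587) and second Pink1 (-0.0772 to 0.0363) probe sets. The cause of these shifts was not tested. Without detection calls, values near or below a signal of 577 could not be set against background.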
